A study of Mus musculus with 32 samples.

Results

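Circadian clock genes were followed in RNA from laser-captured regions of the tibialis anterior (TA) muscle of mice. The set holds 10 genes, taken by name from the 24952 genes of the count and TPM tables: Arntl, Clock, Per1, Per2, Per3, Cry1, Cry2, Nr1d1, Nr1d2 and Dbp. All 10 were found once, and all 10 passed the filter on low counts (CPM, the count as a share of the scaled library total, had to reach 1 in 8 or more libraries) that left 13990 genes for testing. The rule itself uses gene names and no measured value. NMJ regions are the synaptic parts of the fibers, recognized with fluorescent α-bungarotoxin, and xNMJ regions lie outside the synapse. The 32 libraries divide by region and age into 10m NMJ, 30m NMJ, 10m xNMJ and 30m xNMJ, with 8 libraries each from male wild-type C57BL/6JRj mice aged 10 or 30 months. All mice were caged singly and ate the AIN93M diet, for 2-3 months in the 10m groups and for 16 months in the 30m groups, so that age and time on this housing and diet cannot be told apart. Each library pools many regions of a muscle, so fewer cells of a type and less RNA per cell cannot be told apart either. The hour of dissection is not given in the sources used here, and a single sample of a muscle shows the clock at that hour only. The labels do not say that an NMJ and an xNMJ library of equal number came from the same mouse, or that libraries of a group came from separate mice, so the p values measure the spread between these libraries.

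The clock is a loop of transcription and its own repression that takes about a day to turn. ARNTL (also called BMAL1) and CLOCK bind DNA together and switch on the Per and Cry genes, whose proteins then return to the nucleus and repress that pair. In a second loop NR1D1 and NR1D2 (REV-ERB α and β) repress Arntl, and DBP is an output factor that acts on further genes of the loop. In muscle the clock is known to time genes of fuel use, and the mRNAs of Arntl and of its repressors peak at opposite times of day.

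The loop is written in short motifs of the promoters, and the stretches below are shown because they hold those motifs for 4 of the 10 genes. They were read from RefSeq promoter sequences (GRCm38.p6, 250 bases before to 50 bases after the transcript start), which cover 9 of the 10 genes with 13 starts. The capitals mark the E-box (CACGTG, bound by ARNTL and CLOCK), its variant (CACGTT), the D-box (TTATGTAA or TTACGTAA, bound by DBP) and the half-site of ROR and NR1D proteins (AGGTCA), on either strand, and none of the stretches overlaps an annotated exon. The Per1 stretch lies inside the annotated gene (chr11:69095217-69109960, + strand), before a transcript start within the gene and not before its beginning.
Per1 (chr11:69098759-69098823, + strand, E-box at -166 and half-site at -137): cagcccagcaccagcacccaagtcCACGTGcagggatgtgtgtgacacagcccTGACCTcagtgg
Cry1 (chr10:85185095-85185154, - strand, variant at -79 and E-box at -60): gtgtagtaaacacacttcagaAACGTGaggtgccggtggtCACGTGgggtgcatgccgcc
Per3 (chr4:151044806-151044885, - strand, D-boxes at -205 and -158): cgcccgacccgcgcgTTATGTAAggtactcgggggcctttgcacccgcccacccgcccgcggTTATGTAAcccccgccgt
Nr1d2 (chr14:18239157-18239206, - strand, half-site at -77): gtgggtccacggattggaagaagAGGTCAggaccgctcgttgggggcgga

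Of the 13 windows, 2 held an E-box (Per1 and Cry1), as did 7.15% of all 32851 promoter windows. A D-box was found in 1 of the 13 (Per3) and in 1.06% of all windows. The half-site was found in 4 (Arntl, Clock, Per1 and Nr1d2) and in 16.3% of all windows, and the E-box variant in 3 (Cry1, Cry2 and Nr1d1) and in 4.68%. A match describes the letters of the window and shows no binding, and a window without a match says nothing about the factor.

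Libraries held between 4026648 and 16516788 counts. The median was 9605869 (10m) and 9825357 (30m) for NMJ and 6062117 (10m) and 6790011 (30m) for xNMJ. Relative to the unscaled library total, 3 counts, taken as the floor, were worth 0.182 CPM in the deepest library and 0.745 CPM in the shallowest. On the scaled total 3 counts were worth 0.933 CPM in the shallowest library. The tissue labels held against markers of muscle fibers, since the 6 fiber genes summed to medians between 68300 and 117000 CPM in all groups. Synaptic genes such as Chrne and Musk, subunit and organizer of the acetylcholine receptor, summed to medians of 3490 (10m) and 3350 CPM (30m) in NMJ against 66.8 and 63.1 CPM in xNMJ. Library 5 of 30m xNMJ stood apart with 837 CPM of synaptic genes, against 94.1 CPM or less in the other 7 libraries of its group, and with 13182475 counts, the most of its group. Without it no clock gene was called in any comparison.

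A further feature of the libraries bears on every level below. The log2 CPM of 65 genes, Rorb included, had a Pearson r of at least 0.99 with that of Rorb across the 32 libraries, which is a description and no test. In xNMJ they took a mean of 20.4% ± 11 of all counts at 10 months and 22.8% ± 10.6 at 30 months, and in NMJ 7.7% ± 4.77 and 9.99% ± 4.11 (SD, n = 8 each). None of the 10 clock genes was among them, their r with Rorb lying between -0.644 and 0.163. Counts were therefore scaled with TMM factors, which estimate each library's scale from the bulk of genes and averaged 0.829 and 0.805 in the xNMJ groups and 1.22 and 1.24 in the NMJ groups. Apart from the floor on unscaled totals given above, all CPM values are on this scale unless TPM is named.

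Per length of transcript, in TPM, Dbp was the most abundant clock gene at 28.1 ± 11.2 (SD, n = 32), followed by Nr1d2 at 20.4 ± 6.99 and Nr1d1 at 11 ± 7.12. Per1 and Cry2 both averaged 7.52 TPM, Per3 6.49, Clock 5.4, Cry1 5.07 and Arntl 3.19, and Per2 was lowest at 1.73 ± 2.05 TPM. Neighbors in this order were mostly close. Dbp was above Nr1d2 in 23 of the 32 libraries and Per1 above Cry2 in 17, and the step from Nr1d2 to Nr1d1 was the only 1 of the 9 whose mean log2 ratio (1.01) exceeded its own SD (0.998). The order changed by group below the leading pair, Dbp and Nr1d2. In 30m NMJ Per2 averaged 4.17 TPM and Arntl, the lowest there, 2.1 TPM, and Cry2 at 11.5 TPM stood beside Nr1d1 at 11.3 TPM. The order is a description over libraries that differ in depth and composition, also within a group. In 30m xNMJ totals ran from 4424672 to 13182475 counts and the share of the genes that follow Rorb from 3.71% to 35.8%.

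The genes the results turn on are protein-coding genes that lie, in GRCm38, at chr7:113207465-113314126 on the + strand (Arntl), chr1:91415982-91459324 on the - strand (Per2) and chr7:45705088-45710203 on the + strand (Dbp).

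The activators were unlike each other in spread. Arntl was measured from 0 to 352 counts per library. Its CPM ran from 0 over a median of 7.02 to 22.5 in 10m xNMJ and from 1.17 over 7.23 to 40 in 10m NMJ. At 30 months it ran from 0 over 2.72 to 17.1 in xNMJ and from 0.498 over 2.18 to 10.3 in NMJ. The 4 groups overlapped widely, and the within-group SD of Arntl of 1.75 on the log2 scale was above that of 91.3% of tested genes of like abundance. Clock, its partner, ran from 7.64 to 66.6 CPM over all libraries, with medians of 25 and 22.7 CPM in xNMJ and NMJ at 10 months, 20.4 and 17.7 CPM at 30 months and a within-group SD of 0.76.

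The Per genes encode repressors of the ARNTL and CLOCK pair. Per2 had its lowest levels in 10m xNMJ, from 0 over a median of 1.09 to 11.8 CPM, where 3 of 8 libraries held at most 3 counts. In 10m NMJ it ran from 1.65 over 3.8 to 10.2 CPM, in 30m xNMJ from 1.6 over 4.09 to 24.9 CPM and in 30m NMJ from 4.61 over 15 to 24.7 CPM. The 30m NMJ libraries were thus the highest by their median, but each pair of groups still overlapped. Per3 ran from 12.6 over 20.7 to 41.9 CPM in 10m xNMJ and from 9.88 over 19.5 to 26.3 CPM in 10m NMJ. At 30 months it ran from 9.46 over 26.2 to 45.1 CPM in xNMJ and from 17.5 over 32.1 to 51.6 CPM in NMJ. Per1, which also answers directly to stress hormones and activity, had medians of 20.9 and 27.7 CPM in xNMJ and NMJ at 10 months and 20.6 and 35.1 CPM at 30 months, within a range of 6.95 to 55.3 CPM. For all 3 Per genes the highest median of the 4 groups was that of 30m NMJ.

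The Cry genes encode the stronger repressors. Cry1 ran from 0.178 to 42.1 CPM, both extremes being 30m xNMJ libraries, with medians of 13 and 11.1 CPM in xNMJ and NMJ at 10 months and 8 and 9.32 CPM at 30 months. Cry2 ran from 8.05 to 61.6 CPM, with medians of 16.4, 19.2, 16.2 and 26.3 CPM in the same order. Groups of both genes overlapped.

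Of the repressors of Arntl, Nr1d1 had medians of 17.6 and 29.9 CPM in xNMJ and NMJ at 10 months and 12.6 and 14.1 CPM at 30 months. Its libraries ran from 16.3 to 51 CPM at 10 months and from 10.7 to 36.2 CPM at 30 months in NMJ, so that these groups overlapped. Nr1d2 had the smallest within-group SD of the members, 0.457 on the log2 scale, with group medians between 67.3 and 78.9 CPM and a range of 27.6 to 115 CPM. Of tested genes of like abundance 38.3% had a smaller SD than Nr1d2, beside 29.1% for Cry2 and 31.3% for Per3. The output gene Dbp had medians of 39.2 and 30.8 CPM in xNMJ and NMJ at 10 months and 36.8 and 32.6 CPM at 30 months. One library of Dbp lay far below the rest, number 1 of 10m xNMJ at 3.42 CPM (11 counts).

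**Figure D1:**
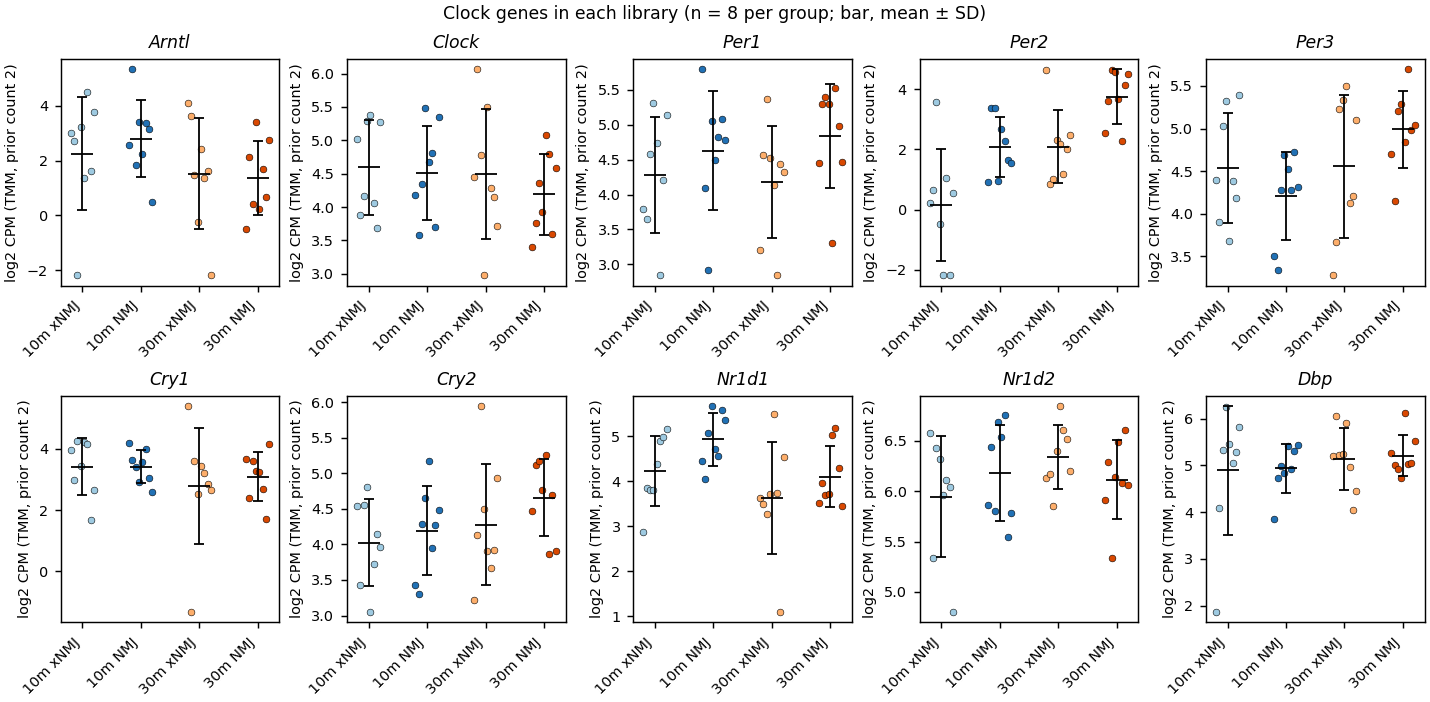
Each panel plots log2 CPM (TMM-scaled, prior count 2) of a clock gene in the 32 libraries by group, each point a library and the bar the mean ± SD (n = 8). The groups overlap in every panel, Per2 is lowest in 10m xNMJ and highest in 30m NMJ, and the lowest point of Dbp is number 1 of 10m xNMJ.

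The comparison of NMJ with xNMJ regions asks whether the clock genes differ between synaptic and extra-synaptic muscle. None of the 10 genes was called at 10 months or at 30 months by edgeR's quasi-likelihood test with Benjamini-Hochberg adjustment over all genes at 0.05, and none had an unadjusted p under 0.05. Over all tested genes edgeR called 1615 at 10 months (11.5%) and 1295 at 30 months (9.26%). DESeq2 called none of the 10 either, and 14.6% and 12.2% of tested genes. The groups did not overlap for 0 of the 10 genes, against 3.42% of tested genes at 10 months and 2.46% at 30 months. The median log2 fold change of the 10 genes was 0.19 at 10 months and 0.11 at 30 months, beside 0.0036 and -0.014 over all tested genes.

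The largest estimate was that of Per2, with a log2 fold change of 1.21 at 10 months (SE 0.734, 95% interval -0.284 to 2.7, edgeR adjusted p = 0.345) and 1.34 at 30 months (SE 0.717, interval -0.113 to 2.8, adjusted p = 0.296). Whether Per2 passed the test at 10 months depended on 1 library. Number 3 of 10m xNMJ held 11.8 CPM of Per2, the highest of that group, and without it the log2 fold change was 2.62 and Per2 was called (edgeR adjusted p = 0.0126). The 30 month value without number 1 of 30m xNMJ, which held 24.9 CPM, was 2.18 (adjusted p = 0.0557). Averaged over the ages, a contrast chosen after its values were seen, Per2 was at 1.28 (interval 0.233 to 2.32, edgeR adjusted p = 0.0786) and no clock gene was called, against 19.6% of tested genes. Without number 3 of 10m xNMJ that average was 1.98 (adjusted p = 0.00204), and without number 1 of 30m xNMJ it was 1.69 (adjusted p = 0.0133). Nr1d1 was estimated at 0.645 at 10 months (interval -0.172 to 1.46) and 0.227 at 30 months (interval -0.589 to 1.04). Per1 was at 0.34 and 0.63 at the 2 ages, and its intervals ended at 1.1 and 1.38.

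Nr1d2 had the narrowest intervals, at 0.21 at 10 months (interval -0.251 to 0.662) and -0.21 at 30 months (interval -0.67 to 0.242). Dbp was at -0.28 (interval -0.987 to 0.437) and 0.01 (interval -0.706 to 0.717), but on log2(TPM + 1) its 10 month estimate was 0.53, outside that interval. Clock was at -0.083 and -0.485, Cry1 at -0.13 and -0.30, Cry2 at 0.18 and 0.21 and Per3 at -0.39 and 0.30, each with an interval that held 0. Arntl had the widest intervals, at 0.38 at 10 months (interval -1.2 to 1.97) and -0.61 at 30 months (interval -2.21 to 0.991). Both reach past a log2 difference of 1 in at least 1 direction at each age.

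The region estimates depended on the scale. On deposited TPM, tested with limma on log2(TPM + 1), all 10 clock genes were estimated higher in NMJ at both ages. Nr1d1 was called at 10 months, and Per1, Per2, Per3, Cry2 and Nr1d1 were called at 30 months, while the same fits called 20.9% of tested genes at 10 months and 25.5% at 30 months. On that scale, however, the median of all tested genes moved as well, by 0.37 at 10 months and by 0.49 at 30 months, while the 10 clock genes had medians of 0.56 and 0.76. Relative to all genes the clock genes were thus at 0.19 and 0.27, and with a pseudocount of 0.1 at 0.095 and 0.24. TPM are scaled to the library total, of which the genes that follow Rorb take a larger mean share in xNMJ, as given above, and the part of these genes in the TPM result was not tested.

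The comparison of ages asks whether the clock genes differ between the muscles of 10m and 30m mice. No clock gene was called in NMJ, where edgeR called 0% of tested genes, or in xNMJ, where it called 0.0429%. In NMJ, Per2 and Per3 had an unadjusted p under 0.05, as had 2.66% of tested genes. In xNMJ 0 of the 10 and 9.45% of tested genes had an unadjusted p under 0.05, and 0.0357% were called higher at 30 months. DESeq2 called none of the 10 in either region, and 0% of tested genes in NMJ and 0.612% in xNMJ.

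Per2 was estimated higher at 30 months in both regions, by a log2 fold change of 1.62 in NMJ (SE 0.718, interval 0.161 to 3.08, unadjusted p = 0.0306 and adjusted p = 0.9998 by edgeR) and 1.48 in xNMJ (SE 0.742, interval -0.0237 to 2.99, adjusted p = 0.541). The xNMJ value rested on single libraries, being 2.9 without number 3 of 10m xNMJ and 0.646 without number 1 of 30m xNMJ. Averaged over the regions, a contrast chosen after its values were seen, Per2 was at 1.55 (interval 0.503 to 2.6, edgeR adjusted p = 0.466). Per3 was at 0.77 in NMJ (interval 0.14 to 1.41, edgeR adjusted p = 0.9998) and 0.09 in xNMJ (interval -0.543 to 0.727). Cry2 was at 0.44 and 0.40 in the 2 regions, with intervals that held 0.

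Arntl and Nr1d1 were estimated lower at 30 months. In NMJ, Arntl was at -1.57 (SE 0.795, interval -3.19 to 0.0424) and Nr1d1 at -0.79 (SE 0.401, interval -1.6 to 0.0271), and in xNMJ they were at -0.58 (interval -2.18 to 1.02) and -0.37 (interval -1.19 to 0.45). Neither passed the test (edgeR adjusted p = 0.9998 in NMJ, and 0.919 and 0.883 in xNMJ). The NMJ value of Arntl was -0.835 without number 2 of 10m NMJ and -2.05 without number 4 of 30m NMJ. The other members stayed nearer to 0, Nr1d2 at -0.09 in NMJ (interval -0.542 to 0.368) and 0.33 in xNMJ (interval -0.125 to 0.79), and Dbp at 0.27 in NMJ (interval -0.443 to 0.977) and -0.01 in xNMJ (interval -0.727 to 0.7). Clock, Per1 and Cry1 had intervals in both regions that held 0.

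Whether the ages differed by region was tested as the interaction, in which edgeR called 0% of tested genes and no clock gene, and in which 0 of the 10 genes and 708 of all tested genes (5.06%) had an unadjusted p under 0.05. DESeq2 called 0 of the 10 clock genes and 10 of all genes (0.0759%) here. The estimates ran from -0.99 for Arntl (interval -3.24 to 1.26) to 0.68 for Per3 (interval -0.213 to 1.58).

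**Figure D2:**
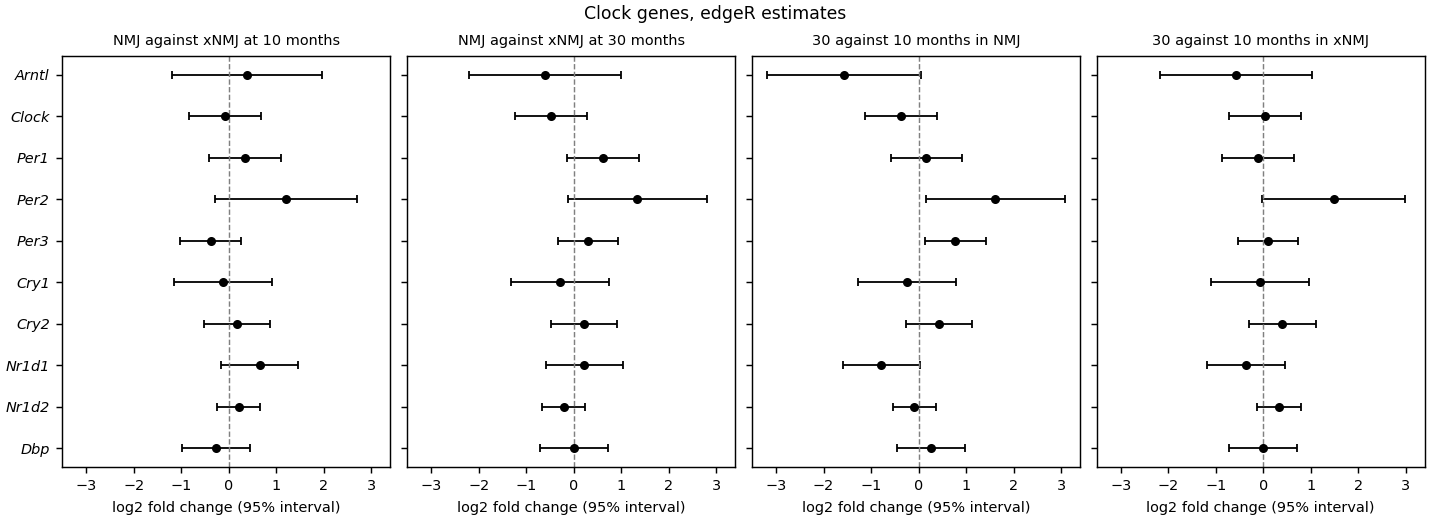
Points are edgeR log2 fold changes of the 10 clock genes in 4 comparisons and bars their 95% intervals, and the dashed line marks 0. All intervals cross 0 except those of Per2 and Per3 between ages in NMJ, which start at 0.161 and 0.14 and do not pass the adjusted test.

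Whether the clock genes of an NMJ library deviated from their group mean together with those of the xNMJ library of equal number was tested by gene with an F test in edgeR that the replicate-number terms of an age are all 0, and described with the correlation over the 8 same-numbered pairs of each age. No clock gene was called at either age. Over all genes 161 were called at 10 months (1.15%) and 204 at 30 months (1.46%). The median r of the 10 clock genes was 0.34 at 10 months and 0.18 at 30 months, beside 0.13 and 0.15 over all tested genes, and r was above 0 for 8 of the 10 at each age, as for 61.4% and 63% of all tested genes with an r. In the F test 1 clock gene at 10 months and 0 at 30 months had an unadjusted p under 0.05, as had 11.1% and 11.8% of tested genes. Of 20 correlations, 1 at each age had an unadjusted exact permutation p under 0.05.

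Dbp had the strongest agreement at 10 months, with r = 0.85 (exact permutation test, two-sided, p = 0.0254) and a Spearman rho of 0.62 (exact p = 0.115). In the F test its unadjusted p was 0.0218 and its adjusted p 0.35 (edgeR), while DESeq2's likelihood ratio test, which called 972 genes in all (7.53%), called Dbp as well. At 30 months that test called no clock gene and 9.48% of all genes. The relation rested on number 1, whose libraries were the lowest for Dbp in both regions at 3.42 CPM in xNMJ and 14.1 CPM in NMJ. Without number 1, r was 0.39, and without numbers 1 and 2, the farthest from the xNMJ median, r was -0.11. At 30 months r of Dbp was 0.21 (exact p = 0.621).

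Nr1d2 had r = 0.78 at 30 months (exact permutation p = 0.0225) with a rho of 0.71 (exact p = 0.0576), an F-test adjusted p of 0.671 (edgeR) and r = 0.43 without the 2 farthest pairs. At 10 months its r was 0.07 (exact p = 0.851). Clock had r = 0.73 at 10 months (exact p = 0.0518, rho 0.69 with exact p = 0.0694), and 0.7 without the 2 farthest pairs, but 0.11 at 30 months (exact p = 0.79). No clock gene had an exact p under 0.05 at both ages.

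By the higher r of the 2 ages, the other members showed less agreement. Cry1 was at r = 0.61 and 0.43 at the 2 ages, Per3 at 0.3 and 0.4 and Nr1d1 at 0.38 and 0.16, with exact permutation p values of 0.112 or more. Per2 changed sign between the ages, from 0.41 to -0.26, as did Per1 from -0.11 to 0.12 and Cry2 from -0.13 to 0.25, none of them with an exact p under 0.05. Arntl ran the other way at 30 months with r = -0.67 (exact p = 0.0634), where number 1 held the highest xNMJ level (17.1 CPM) and the lowest NMJ level (0.498 CPM), and number 4 held 0.62 CPM in xNMJ and the highest NMJ level (10.3 CPM). Without 1 pair that r ran from -0.88 to -0.55, and without numbers 1 and 8, the farthest from the xNMJ median, it was -0.4. At 10 months Arntl was at 0.18 (exact p = 0.614).

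**Figure D3:**
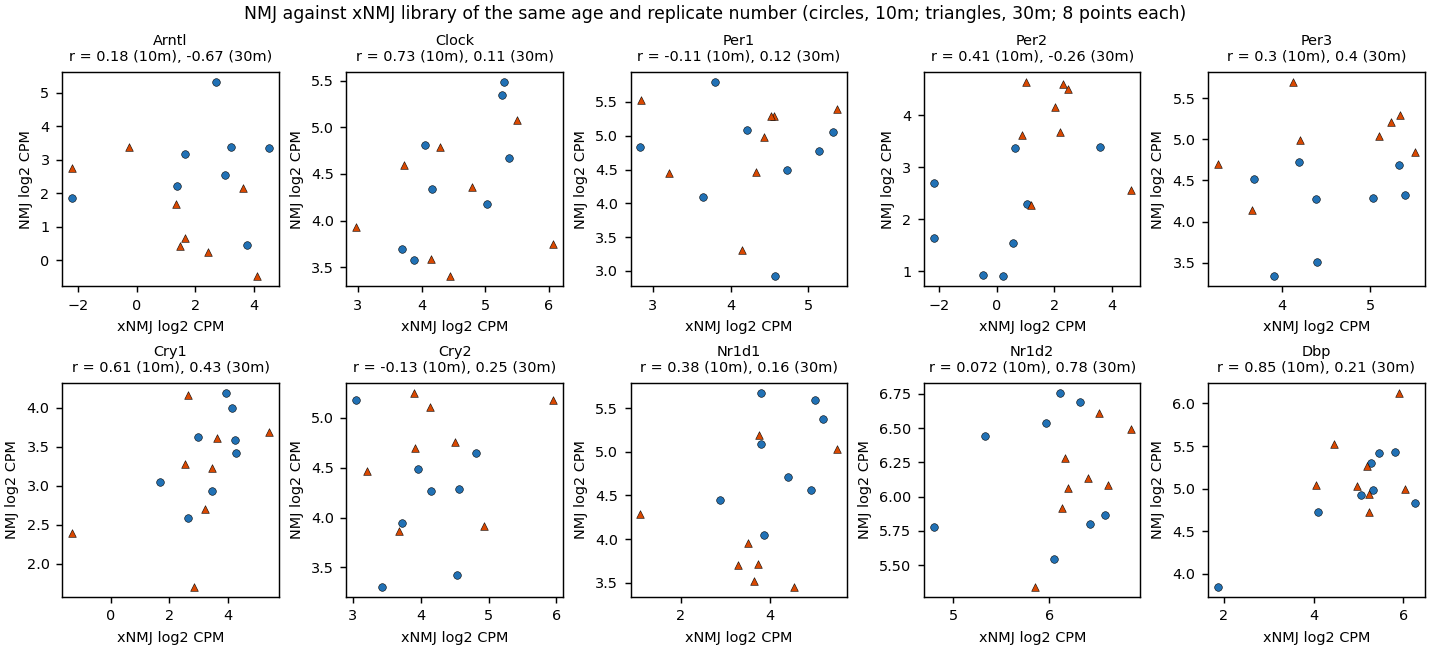
Each panel plots log2 CPM of a clock gene in the NMJ library against the xNMJ library of the same age and number (circles, 10m; triangles, 30m; 8 points each), with Pearson r in the title. The r of Dbp at 10 months (0.85) follows a lone point at the lower left, number 1, and Arntl at 30 months slopes downward (r = -0.67).

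**Figure D4:**
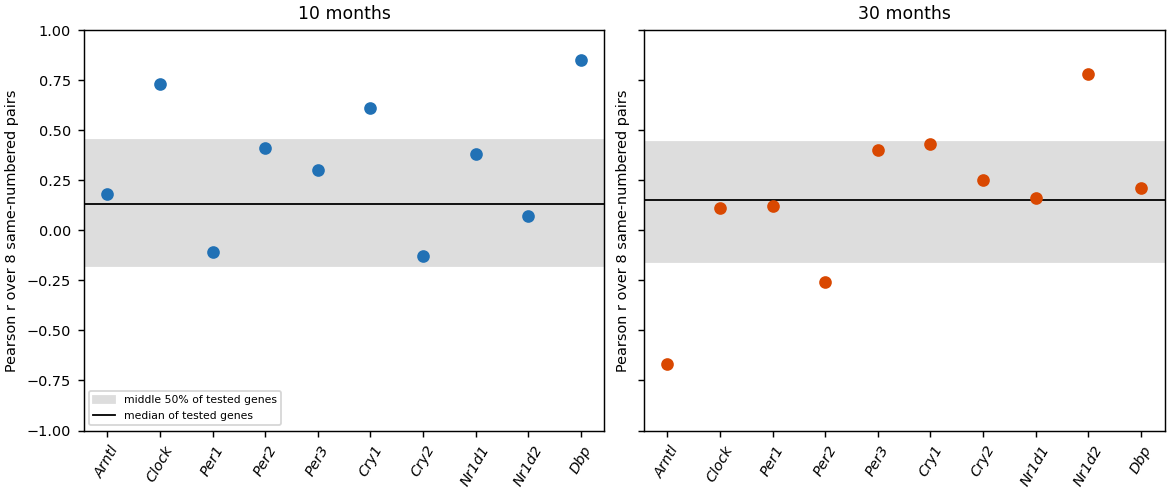
Points are the Pearson r of each clock gene over the 8 same-numbered pairs of an age, the line the median r of all tested genes (0.13 at 10 months and 0.15 at 30 months) and the grey band the range between their quartiles. Dbp, Clock and Cry1 lie above the band at 10 months and Nr1d2 at 30 months, while Arntl at 30 months and Per2 at 30 months lie below it.

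Whether members moved together was addressed by regressing each gene across regions on the level of Dbp, and of Arntl, in the library of equal number from the other region, with age as a covariate (16 libraries a fit). No clock gene was called in any of the 4 fits. The closest values were those of Nr1d1 in xNMJ on the NMJ level of Dbp, with a slope of 1.5 (SE 0.38, interval 0.68 to 2.3, edgeR adjusted p = 0.324), of Cry2 in NMJ on the xNMJ level of Dbp, with 0.37 (SE 0.12, adjusted p = 0.327), and of Dbp itself in that fit, with 0.3 (SE 0.11, adjusted p = 0.363). On Arntl, Per2 in NMJ had a slope of -0.24 (SE 0.1, edgeR adjusted p = 0.945), and Arntl on itself was at -0.2 in NMJ (interval -0.62 to 0.23) and -0.3 in xNMJ (interval -1 to 0.4). Of all tested genes the fits on Dbp called 0% in NMJ and 0.00715% (1 gene) in xNMJ, and those on Arntl 0% and 0.00715%. The called genes, Cks2 and Hyi, averaged 1.2 and 3.14 CPM and are named after their values were seen. DESeq2 called no clock gene and 193, 75, 14 and 13 of all genes in these fits, in the order Dbp in NMJ and xNMJ, then Arntl in NMJ and xNMJ. At an unadjusted p under 0.05 stood 2 and 1 clock genes on Dbp (11.4% and 7.43% of tested genes) and 1 and 0 on Arntl (4.84% and 4.68%).

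Within a region, in fits added after the data were seen, no clock gene was called either. These fits called 0.00715% of tested genes in NMJ and 0.0429% in xNMJ on Dbp, and 0.00715% in each region on Arntl, the reference gene included. On Dbp in the same NMJ libraries Per1 had a slope of -0.95 (SE 0.32, edgeR adjusted p = 0.337), and in xNMJ libraries Nr1d1 had 0.51 (SE 0.24, adjusted p = 0.401). On Arntl no member had an adjusted p under 0.99 in either region. Clock in xNMJ libraries had a slope of 0.22 on Arntl (SE 0.1, interval 0.0082 to 0.44, edgeR adjusted p = 0.9903).

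In the same F test over equal numbers, 3 of 31 further genes of the pathway were called at each age, beside the 1.15% and 1.46% of all tested genes. Of these, Rorb (r = 0.91 and 0.89) and Bhlhe41 (r = 0.91 and 0.88) belong to the genes that follow Rorb, and without number 5 their r at 30 months was 0.38 and 0.36. The other, Pdk4, a kinase that shuts down the use of glucose in the mitochondrion and is known to follow the clock and fasting, was called at both ages (r = 0.93 and 0.77, edgeR adjusted p = 0.00662 and 0.00617). Its highest pair at 10 months was number 7, with 665 CPM in xNMJ and 622 CPM in NMJ, and its lowest was number 6, with 135 and 106 CPM. At 30 months number 5 was lowest in both regions, with 80.6 and 77 CPM. The call was lost at 10 months without number 6 (adjusted p = 0.0962), although r stayed between 0.92 and 0.95 whichever pair was left out, and at 30 months without number 5 (adjusted p = 0.546, r = 0.52) or with only the 16 libraries of that age in the fit (adjusted p = 0.167). The number of all genes called at 30 months was 4 without number 5, the number of the library that stood apart, and at 10 months it was 95 without number 4. Of the called genes, 40.4% at 10 months and 31.9% at 30 months were genes that follow Rorb.

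Around the 10 genes, 33 further genes of the pathway were examined, of which 31 were tested, since Npas2 and Arntl2, relatives of Clock and Arntl, did not reach the filter. At each age 7 of them were called between regions, 6 lower and 1 higher in NMJ, while 5.05% of all tested genes were called lower and 6.5% higher at 10 months and 4.25% and 5% at 30 months. Their median log2 fold change was -0.25 at 10 months and -0.19 at 30 months, beside 0.0036 and -0.014 over all tested genes. Between ages and in the interaction 0 of the 31 were called by edgeR, with 1 in NMJ, 2 in xNMJ and 0 in the interaction at an unadjusted p under 0.05, as had 2.66%, 9.45% and 5.06% of all tested genes.

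Among partners of the loop, Bhlhe40, a repressor of the ARNTL and CLOCK pair, was at -0.84 at 10 months (edgeR adjusted p = 0.0463), a call lost in 24 of 32 fits that left out a library, and at -0.38 at 30 months (adjusted p = 0.492). Rorb and Bhlhe41 were called lower at both ages, but both belong to the genes that follow Rorb, and whether their counts come from their own transcripts was not tested.

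Of the regulators, Usp2, a deubiquitinase of clock proteins that is itself rhythmic, was called lower in NMJ at both ages. It ran from 146 over 226 to 275 CPM in 10m xNMJ and from 83.5 over 143 to 153 CPM in 10m NMJ, groups that overlapped. At 30 months it ran from 205 over 262 to 308 CPM in xNMJ and from 110 over 130 to 183 CPM in NMJ, groups that did not overlap, as for 2.46% of tested genes. Its log2 fold change was -0.79 at 10 months (SE 0.151, edgeR adjusted p = 0.000423) and -0.94 at 30 months (SE 0.152, adjusted p = 5.81e-05), and the call was kept in all 32 fits that left out a library. Nampt, the enzyme that feeds NAD to the clock's deacetylase, was at -0.59 (adjusted p = 0.0182) and -0.54 (adjusted p = 0.0378), the latter lost in 7 of 32 such fits and with only the groups compared (0.0766). Without the filter on low counts both calls of Nampt were lost (adjusted p = 0.0775 and 0.121). On log2(TPM + 1) the calls of Usp2, Nampt, Bhlhe40 and Ucp3 were lost. Usp2 was then at -0.153 and -0.114, and Nampt at -0.217 at 10 months and, with its sign turned, at 0.0473 at 30 months. The median of all tested genes on that scale was 0.37 at 10 months and 0.49 at 30 months, and both genes lay below it.

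Of the outputs, Por, which passes electrons to cytochrome P450 enzymes, was higher in NMJ at 10 months by 1.62 (SE 0.452, edgeR adjusted p = 0.0143), from 17.6 to 37.7 CPM in NMJ against 1.12 to 17.4 CPM in xNMJ, and at 30 months it was at 0.88 (adjusted p = 0.257). Fkbp5, a co-chaperone induced by glucocorticoids, was higher at 30 months by 1.9 (SE 0.436, adjusted p = 0.0034), from 21.7 to 62.8 CPM in NMJ against 5.37 to 18.5 CPM in xNMJ, and at 10 months it was at 1.11 (adjusted p = 0.0927). Both calls were kept in all fits that left out a library and on the TPM scale, where the median of all tested genes was also higher in NMJ. Ucp3, a mitochondrial carrier, was lower at 30 months by -1.04 (adjusted p = 0.0458), a call lost in 17 of 32 such fits, and was at -0.83 at 10 months (adjusted p = 0.114). None of these genes was called in the interaction of age and region.

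Markers of other cells moved between the regions as well. All 7 synaptic and all 6 Schwann cell genes were called higher in NMJ at both ages, and the Schwann genes summed to medians of 205 and 182 CPM in NMJ against 11 and 11.8 CPM in xNMJ. Of 6 fibroblast genes, 5 and 4 were higher, with summed medians of 1280 and 1080 CPM in NMJ against 168 and 164 CPM in xNMJ, mostly Dcn. Of 4 macrophage genes 2 and 1 were higher (1 of the 4 was at 0 in every 30m xNMJ library) and of 3 muscle stem cell genes 1 and 1, while 3 and 4 of the 6 fiber genes, of which Tnnt3 was the most abundant, and 0 and 2 of the 5 endothelial and mural genes were lower. Their part in the differences of Usp2, Nampt, Por and Fkbp5 was not tested.

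**Figure D5:**
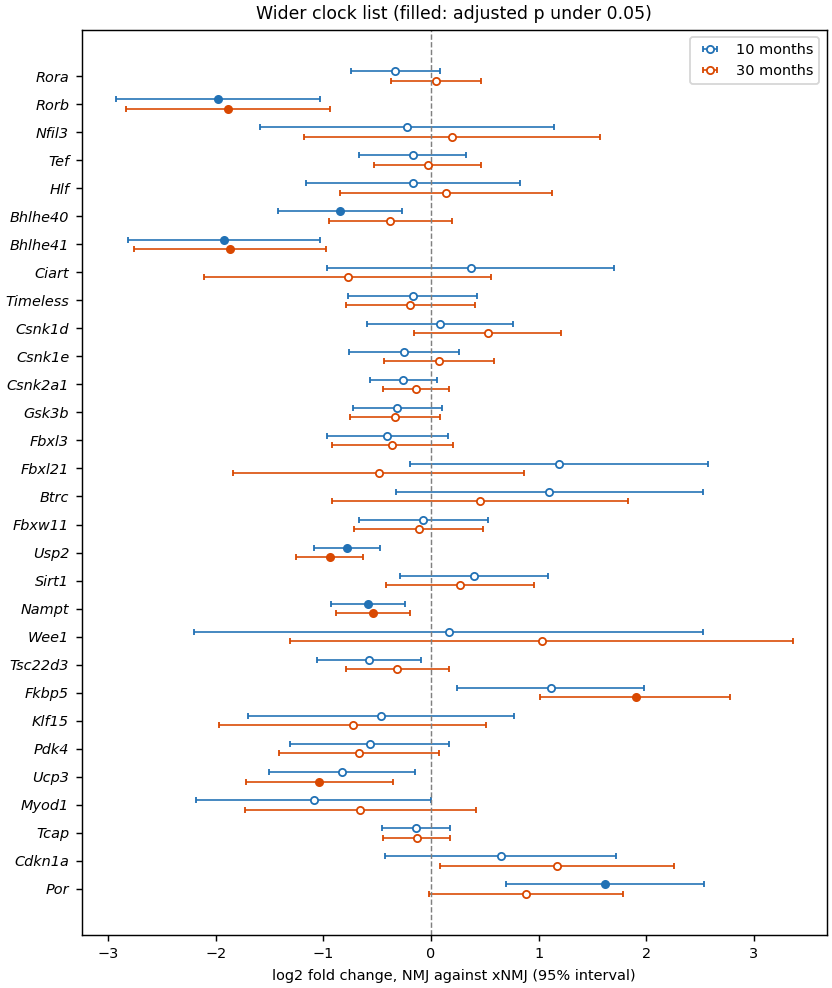
Points are edgeR log2 fold changes of NMJ against xNMJ for 30 of the 31 tested genes of the wider clock list at 10 and 30 months, with 95% intervals and called genes marked. Usp2 and Nampt lie below 0 at both ages, Por at 10 months (1.62) and Fkbp5 at 30 months (1.9) lie above it.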

How the data were processed

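RNA of laser-captured NMJ and xNMJ regions was sequenced by the authors after SMART-Seq v4 amplification. Per the labels, reads were trimmed with cutadapt 1.9.1 and assigned with kallisto 0.43.1 (GRCm38). In the deposited count table, which holds integers, the authors shared a read among the transcripts it fitted and summed over each gene. The deposited TPM values were scaled by the authors for length and library total.

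Counts were tested with edgeR 4.0.16 (R 4.3.3) in a quasi-likelihood fit of the 4 groups with TMM factors, after a filter of 1 CPM in 8 libraries (13990 of 24952 genes). P values were adjusted by Benjamini-Hochberg over all tested genes, at 0.05. SE is the log2 fold change over the root of F, and log2 CPM has a prior count of 2. TPM were tested with limma 3.58.1 at pseudocounts of 1 and 0.1. DESeq2 1.42.0, no filter, other size factors, a replicate block and leaving out each library were alternatives. For slopes and for the test of equal numbers, each pair of equal number was left out instead. Scripts were tested on simulated data. Permutation tests were exact and two-sided (scipy 1.17.1). Floors and intervals cover the spread and counting error only.

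All 10 clock genes and, of the wider list, the called genes are named, except that some genes of the lists are not reported here, though they count in the totals. The members and lists were chosen with earlier results of these data known.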

Additional observations from a re-analysis of the deposited data

Results flagged for a closer look

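Of 40 gene and group combinations of the 10 clock genes, 4 had a library far from the other 7 of its group by Dixon's criterion, which chance meets in about 1 in 20 groups. Arntl was lowest in number 3 of 10m xNMJ, with a log2 CPM of -2.19 (0 counts) against 1.38 in the next library. Per2 was highest in number 1 of 30m xNMJ, at 4.65 (24.9 CPM, 121 counts) against 2.48. Cry1 was lowest in number 2 of 30m xNMJ, at -1.33 (1 count) against 2.54. Dbp was lowest in number 1 of 10m NMJ, at 3.85 (14.1 CPM, 137 counts) against 4.73.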

How the results depend on the processing

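The count of called clock genes was 0 in 353 of 361 alternative fits. It was 1 at 10 months and 5 at 30 months on log2(TPM + 1), and 2 and 5 on log2(TPM + 0.1), beside 20.9% and 25.5% and then 21.5% and 26.3% of all tested genes. With the smaller pseudocount the median of all genes moved by 0.57 and 0.73. Leaving out 1 library gave 0 to 1 called clock genes between regions at 10 months and in the average over ages, as given with Per2. DESeq2's likelihood ratio test gave 1 (Dbp) for equal numbers at 10 months. The cause was not tested.

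Across the alternative settings 195 estimates changed sign and 3503 stayed the same, while 16 became stronger and 80 weaker. No clock gene estimate that changed sign was called under that setting or in the reported fit. On log2(TPM + 1) the region difference turned at 10 months for Clock (0.227), Per3 (0.0698), Cry1 (0.417) and Dbp (0.53), and at 30 months for Arntl (0.127), Clock (0.309), Cry1 (0.618), Nr1d2 (0.366) and Nampt (0.0473). On log2(TPM + 0.1) the same estimates turned, to 0.264, 0.084, 0.547 and 0.585 at 10 months and to 0.384, 0.395, 0.979, 0.383 and 0.0486 at 30 months. The medians of all tested genes were 0.37 and 0.49 on log2(TPM + 1), and 0.57 and 0.73 on log2(TPM + 0.1). At the pseudocount of 1, Cry1 and Dbp at 10 months and Cry1 at 30 months lay above these medians, and the other turned estimates below. With the pseudocounts of 1 and 0.1, the age difference turned in NMJ for Clock (0.0714, 0.0871) and Nr1d2 (0.0539, 0.0576), in xNMJ for Clock (-0.0108, -0.0436), Per3 (-0.0291, -0.0528) and Dbp (0.19, 0.236), and the interaction for Clock (0.0822, 0.131) and Cry1 (0.201, 0.433). DESeq2 and its size factors in edgeR turned Dbp between ages in xNMJ (0.00196, 0.00191) and the Cry2 interaction (-0.00128, -0.000535). With only the groups compared, and without the genes that follow Rorb, Dbp between regions at 30 months turned (-0.00599, -0.0145).

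Leaving out 1 library gave ranges across 0 for differences between regions at 10 months in Arntl (-0.355 to 0.809), Clock (-0.253 to 0.0371) and Cry2 (-0.00456 to 0.311), at 30 months in Cry1 (-0.491 to 0.382) and Dbp (-0.174 to 0.162), and over both ages in Arntl (-0.482 to 0.154), Per3 (-0.109 to 0.0304), Cry1 (-0.311 to 0.125) and Nr1d2 (-0.0616 to 0.0438). Between ages the range crossed 0 in NMJ for Nr1d2 (-0.164 to 0.00446), in xNMJ for Clock (-0.293 to 0.18), Per1 (-0.351 to 0.0569), Per3 (-0.0593 to 0.236), Cry1 (-0.758 to 0.113) and Dbp (-0.187 to 0.204), and over both regions for Per1 (-0.0944 to 0.131). In the interaction it did so for Per2 (-1.28 to 0.973, the lowest without number 3 of 10m xNMJ), Cry1 (-0.36 to 0.513), Cry2 (-0.0991 to 0.433) and Nr1d1 (-0.62 to 0.0161).

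Slopes on Dbp crossed 0 when 1 pair of equal number was left out in NMJ for Arntl (-0.785 to 0.0108), Per1 (-0.258 to 0.154), Per2 (-0.615 to 0.116) and Nr1d2 (-0.0206 to 0.112), and in xNMJ for Arntl (-0.272 to 0.222), Clock (-0.0171 to 0.682), Per1 (-0.113 to 0.339), Per2 (-0.273 to 0.781), Cry1 (-0.165 to 0.346) and Nr1d2 (-0.478 to 0.164). Slopes on Arntl did so in NMJ for Clock (-0.0069 to 0.0678), Per1 (-0.00297 to 0.187), Cry1 (-0.104 to 0.036), Cry2 (-0.0316 to 0.0484), Nr1d1 (-0.037 to 0.0575) and Dbp (-0.0287 to 0.0186), and in xNMJ for Per3 (-0.158 to 0.0312), Cry2 (-0.105 to 0.136), Nr1d1 (-0.178 to 0.0223) and Nr1d2 (-0.109 to 0.0953). With the reference gene in TPM, slopes turned in xNMJ on Dbp for Arntl (-0.0343) and Clock (-0.00526), in NMJ on Arntl for Cry2 (-0.04) and Nr1d1 (-0.0762) and in xNMJ on Arntl for Nr1d2 (-0.0453). The Arntl slope in xNMJ on Dbp also turned without the filter (-0.0131) and with DESeq2 (-0.0272). The r of equal-numbered libraries crossed 0 without 1 pair at 10 months for Arntl (-0.11 to 0.53), Per1 (-0.25 to 0.025), Cry2 (-0.48 to 0.48) and Nr1d2 (-0.32 to 0.21), and at 30 months for Clock (-0.19 to 0.41, and -0.033 on the TPM scale), Per1 (-0.084 to 0.54), Per2 (-0.64 to 0.42), Cry2 (-0.12 to 0.53), Nr1d1 (-0.27 to 0.43) and Dbp (-0.38 to 0.39).

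The profile correlation over 16 pairs ran from -0.018 to 0.37, was over 0.1 in 5, and 8 of 16 NMJ libraries correlated best with their own number, of 8 candidates each. This is a hint of pairing from the data, not the design, and it did not hold for every pair. With the replicate block 0 clock genes were called, the region difference of Cry1 at 30 months (0.172) and the interactions of Per2 (-0.237) and Cry1 (0.182) turned, all genes called were 1829 and 1531 between regions and 0 in the interaction, and among the genes named here the Bhlhe40 call was lost (adjusted p = 0.141). For age in xNMJ, where edgeR called 6 genes, DESeq2 called 84 and leaving out a library gave 0 to 9. Without the genes that follow Rorb, an alternative added after the data were seen, 1534 and 1229 genes were called between regions. Arntl, Per2 and Cry1 had libraries at 3 counts or fewer, and these were not always shallow, since Per2 had 0 counts in number 7 of 10m xNMJ, the deepest of its group (10258988 counts). The part of depth in these low values was not tested.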
